A study of Drosophila melanogaster with 8 samples.

Results

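Sxl, msl-2, msl-3 and mof, the switch gene of sex determination and 3 genes of the dosage compensation complex, were followed across 3 Drosophila melanogaster cell lines. The members are the 4 genes with these symbols in the platform's probe annotation. They are read by 5 of the 13966 probe sets tested, with 2 for Sxl and 1 for each of the other genes. Expression was measured on 8 Affymetrix DrosGenome1 arrays. RasV12 is a continuous line made from embryos by expressing oncogenic Ras, sampled at passage 12 on 3 arrays. CL8 was sampled on 4 arrays and L2 on 1 array, and for both the labels give a line name and no passage. The cells of each line were at 70% confluence, and each array had RNA from a T-flask of its own. Neither the driver of the Ras transgene nor the sex of any line is stated in the labels.

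In flies the RNA-binding protein Sxl is made in females, where it directs the splicing of its own RNA and of the RNA of tra, and blocks the splicing and translation of msl-2 RNA. Males lack functional Sxl and make Msl-2, a RING finger protein, which assembles with Msl-1, the chromodomain protein Msl-3, the helicase Mle, the acetyltransferase Mof and the roX RNAs on the X chromosome. There Mof acetylates lysine on histone H4, and transcription of X-linked genes is raised. Mof also works at promoters on all chromosomes in the NSL complex, in both sexes. Because sex is set at Sxl by splicing, and msl-2 is held down in part at translation, an RNA level does not tell which form of either product the cells made. Sxl and mof lie on chromosome X, msl-2 on arm 2L and msl-3 on arm 3L, as RefSeq annotates them (assembly Release 6 plus ISO1 MT).

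Values are log2 expression values as the authors deposited them. The lines do not share one distribution of values, so each comparison was repeated after quantile normalization of all arrays (rescaled values). The median over all probe sets shifted with this step by 0.13 in RasV12 against CL8, by -0.26 in L2 against CL8 and by 0.38 in RasV12 against L2. Subtracting the median of each array instead took it from 0.27 to -0.40 in L2 against CL8. In RasV12 against L2 that step took it from -0.40 to 0.34, and in RasV12 against CL8 from -0.08 to -0.02. The array medians were 4.99 in L2 and 4.13 to 4.41 on the other arrays. Background was read from 23 control probe sets for transcripts that flies do not have, whose highest value on an array was 2.98 to 3.47 in RasV12 and CL8 and 4.04 in L2. Over the 7643 probe sets whose mean was above the highest control of all arrays, rescaling shifted the medians otherwise. In RasV12 against CL8 the median went from -0.72 to -0.08, and in L2 against CL8 from -0.38 to -0.03. In RasV12 against L2 it went from -0.37 to -0.08. All 40 values of the members, from 5 probe sets on 8 arrays, were above the highest control of their array, the nearest by 0.58 on the log2 scale. A control for 18S ribosomal RNA split the CL8 arrays, with 10.13 and 9.50 for the first pair and 15.33 and 14.53 for arrays 3 and 4, and the labels give no batch. It read 9.26, 10.08 and 12.12 on the RasV12 arrays and 5.88, below every other array, on the L2 array. Lines were compared with limma over all tested probe sets, with Benjamini-Hochberg adjustment and a threshold of 0.05. With 1 array, L2 borrows its spread from the other lines in each test. The p-values measure the spread between flasks of one line, and in bulk RNA fewer cells with a transcript and less of it per cell cannot be told apart.

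Sxl was highest in RasV12 on both of its probe sets. On probe set 1, the brighter of the pair, the RasV12 arrays read 9.73, 10.58 and 10.16. The CL8 arrays read 7.12, 5.31, 7.01 and 6.93 in order of their number, and the L2 array read 6.40. Every RasV12 array was thus above every other array, and L2 lay inside the range of CL8, below 3 of its arrays and above array 2. The mean was 10.16 ± 0.43 (SD, n = 3) for RasV12 and 6.59 ± 0.86 (n = 4) for CL8. Sxl rose by 3.57 ± 0.45 (SE) on the log2 scale in RasV12 against CL8, an 11.8-fold difference (4.21 rescaled; limma adjusted p = 0.000218, and 0.000342 rescaled). It rose by 3.76 ± 0.67 against L2 (4.21 rescaled; limma adjusted p = 0.00296). L2 and CL8 differed by -0.19 (95% interval -1.71 to 1.32; limma adjusted p = 0.798), and this interval spans changes of more than doubling in either direction. Without CL8 array 2 the difference was -0.62 (limma adjusted p = 0.0984).

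Probe set 2 of Sxl gave another order of the lines. It read 8.25, 9.01 and 8.91 on the RasV12 arrays, 6.65, 5.16, 4.43 and 3.88 on CL8 arrays 1 to 4 and 8.04 on the L2 array. Here L2 lay just below RasV12 and above every CL8 array. The means were 8.73 ± 0.41 (SD, n = 3) for RasV12 and 5.03 ± 1.20 (n = 4) for CL8. On this probe set Sxl rose by 3.70 ± 0.60 (SE) in RasV12 against CL8, a 13-fold difference (4.20 rescaled; limma adjusted p = 0.000958). It also rose in L2 against CL8, by 3.01 ± 0.87 (3.30 rescaled; limma adjusted p = 0.0205, and 0.0329 rescaled). With the median of each array subtracted in place of rescaling, the L2 difference was 2.34 and did not pass (limma adjusted p = 0.0927). RasV12 and L2 differed by 0.69 (95% interval -1.40 to 2.78; limma adjusted p = 0.528).

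The probe sets of Sxl therefore placed RasV12 above CL8 by nearly the same amount and parted over L2. The difference of probe set 1 minus probe set 2 within an array was 1.25 to 1.57 in RasV12 and 0.15 to 3.06 in CL8, all above 0, but -1.64 in L2 (-1.88 rescaled). No test was made of this difference, since L2 has 1 array. In RefSeq the gene takes in the former loci CG14425 and CG18350, and the sources used here do not say which part of the transcript each probe set reads. Both Sxl probe sets also varied more within CL8 than nearly all others on the array. Their SDs of 0.86 and 1.20 were larger than those of 98.5% and 99.5% of the probe sets, whose median SD in CL8 was 0.15. The 2 patterns differed, with array 2 low on probe set 1, and arrays 3 and 4 below arrays 1 and 2 on probe set 2. The rise of probe set 2 in RasV12 was 4.57 without CL8 arrays 1 and 2 and 2.82 without arrays 3 and 4 (limma adjusted p = 3.21e-06 and 0.000659). Its rise in L2 was 3.89 and 2.13 under the same removals (limma adjusted p = 8.69e-05 and 0.0141). The part of the 18S signal, which separates the same pairs of CL8 arrays, was not tested.

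**Figure D1:**
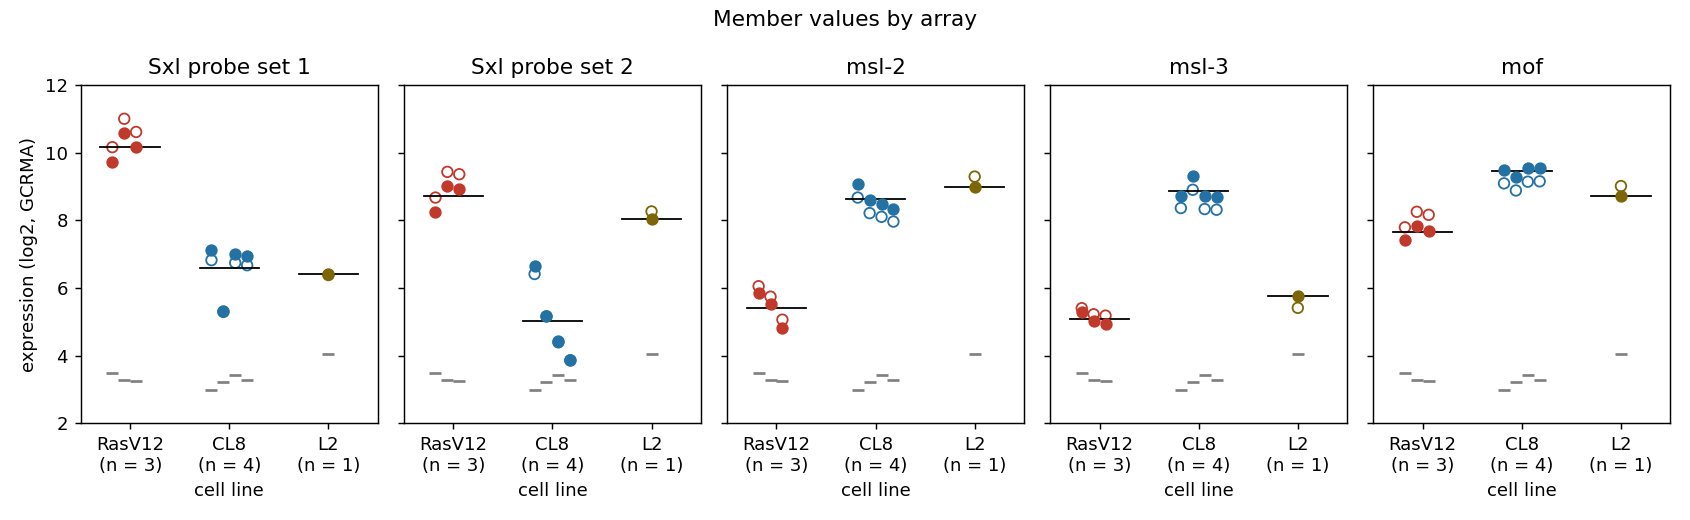
Log2 expression of the 5 member probe sets on every array of RasV12, CL8 and L2. Filled points are deposited values, open points rescaled values, black bars the mean of the deposited values and grey dashes the highest background control of each array. RasV12 is above the other lines on Sxl probe set 1 and below them on msl-2, msl-3 and mof, while L2 changes its place from gene to gene.

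msl-2, the gene whose product is made only in males and whose RNA Sxl binds, was lowest in RasV12. Its probe set read 5.85, 5.51 and 4.82 on the RasV12 arrays, 9.06, 8.59, 8.49 and 8.34 on the CL8 arrays and 8.99 on the L2 array. All RasV12 arrays were below all other arrays, and L2 was inside the range of CL8. The mean was 5.39 ± 0.53 (SD, n = 3) for RasV12 and 8.62 ± 0.31 (n = 4) for CL8. msl-2 fell by 3.23 ± 0.26 (SE) in RasV12 against CL8, a 9.4-fold difference (-2.62 rescaled; limma adjusted p = 1.75e-05). Against L2 it fell by 3.60 ± 0.39, or 12.1-fold (-3.67 rescaled; limma adjusted p = 0.0003). L2 and CL8 differed by 0.37 (95% interval -0.52 to 1.25; limma adjusted p = 0.409) on deposited values and by 1.05 rescaled (limma adjusted p = 0.0863). L2 thus combined a high value of msl-2 with a high value of Sxl on probe set 2 and a low one on probe set 1.

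msl-3 was high in CL8 alone. This gene encodes the chromodomain subunit that recognises methylated histone H3 on active genes. It read 5.30, 5.01 and 4.92 on the RasV12 arrays, 8.73, 9.30, 8.73 and 8.69 on the CL8 arrays and 5.77 on the L2 array. Every CL8 array was above every other array by a wide margin, and the L2 value stood just above the RasV12 arrays. The mean was 5.08 ± 0.20 (SD, n = 3) for RasV12 and 8.86 ± 0.29 (n = 4) for CL8. msl-3 fell by 3.79 ± 0.17 (SE) in RasV12 against CL8, a 13.8-fold difference (-3.20 rescaled; limma adjusted p = 1.02e-06). It fell by 3.09 ± 0.25 in L2 against CL8, or 8.53-fold (-3.06 rescaled; limma adjusted p = 7.61e-05). RasV12 and L2 differed by -0.69 (95% interval -1.29 to -0.09) and did not pass (limma adjusted p = 0.0527), nor did they rescaled, at -0.14 (limma adjusted p = 0.667). That difference passed without RasV12 array 1, at -0.81 (limma adjusted p = 0.0407), and without CL8 array 2, at -0.69 (limma adjusted p = 0.0132). CL8 array 2 is not part of this comparison, so its removal kept the difference and lowered the error from 0.26 to 0.17.

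mof, which encodes the acetyltransferase shared by the MSL and NSL complexes, had the smallest difference between RasV12 and CL8 among the members. It read 7.43, 7.83 and 7.67 on the RasV12 arrays, 9.48, 9.29, 9.53 and 9.55 on the CL8 arrays and 8.73 on the L2 array. As deposited the lines did not overlap, with CL8 at the top, L2 between and RasV12 at the bottom, and rescaled L2 read 9.01, inside the range of CL8. The mean was 7.64 ± 0.20 (SD, n = 3) for RasV12 and 9.46 ± 0.12 (n = 4) for CL8. mof fell by 1.82 ± 0.12 (SE) in RasV12 against CL8, a 3.52-fold difference, and by 1.00 when rescaled (limma adjusted p = 5.2e-06, and 0.000845 rescaled). The step from CL8 to L2 depended on the scaling. It was -0.72 ± 0.17 as deposited (limma adjusted p = 0.00956) and -0.05 rescaled (limma adjusted p = 0.843). mof fell by 1.09 ± 0.18 in RasV12 against L2 (-0.95 rescaled; limma adjusted p = 0.00182, and 0.00826 rescaled), but at -0.36 with array medians subtracted this did not pass (limma adjusted p = 0.227).

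In RasV12 against CL8, 2 of the 5 member probe sets were called higher, both of Sxl, and 3 lower, those of msl-2, msl-3 and mof, in both scalings. Of all tested probe sets, 11.3% were called higher and 38.6% lower on deposited values, and 35.4% and 29.8% rescaled. None of the 5 overlapped between the arrays of these lines, as was true of 56.6% of all probe sets. A call alone is therefore common in this comparison, and the sizes are given beside it. On deposited values, the differences of Sxl on both probe sets, msl-2 and msl-3 were larger in absolute value than those of 97.3% to 98.1% of all probe sets. That of mof was larger than 89.5%. Such ranks count dim probe sets too, since only 7643 of the 13966 had a mean above the highest control of all arrays. The members were also chosen with earlier results of these data known, so the ranks only describe them.

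In L2 against CL8, 1 member probe set was called higher, Sxl probe set 2, and 2 lower, msl-3 and mof. Rescaled, the call of mof was lost and the others held. Over all probe sets the shares were 38.3% higher and 23.6% lower, and 20.2% and 17.4% rescaled. In RasV12 against L2, 1 was called higher, Sxl probe set 1, and 2 lower, msl-2 and mof, in both scalings, beside 9.57% and 44.1% of all probe sets (22.0% and 26.0% rescaled). These comparisons share arrays, so their values are given side by side and were not set against each other.

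**Figure D2:**
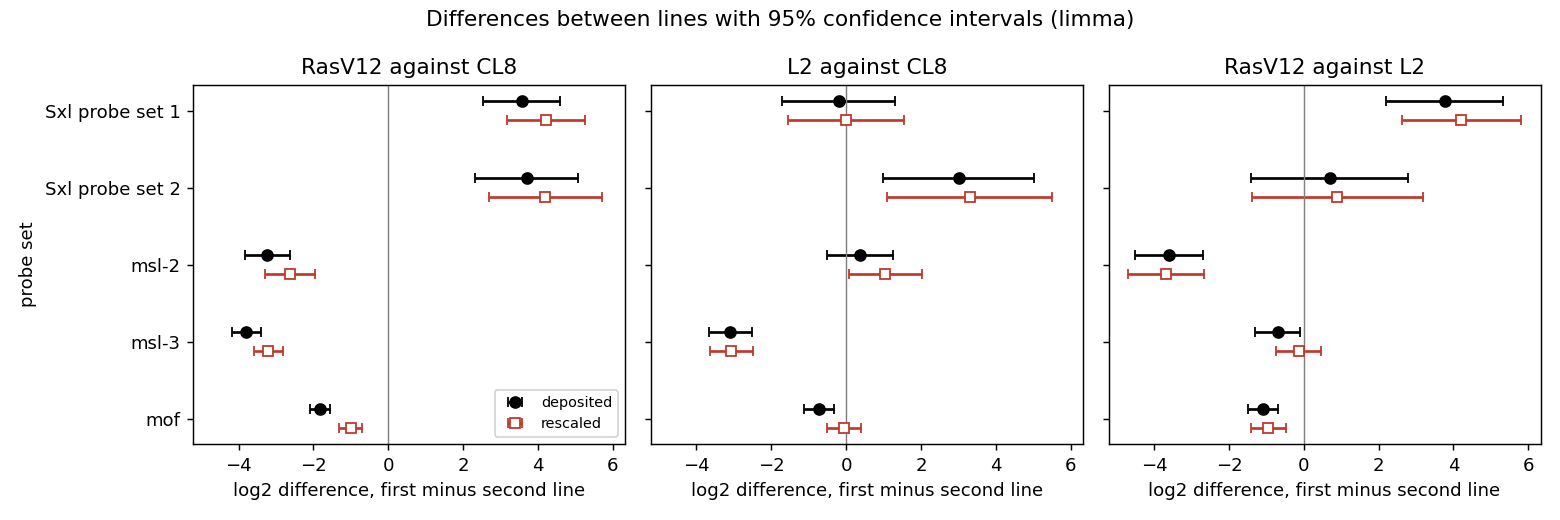
Log2 difference of each member probe set in 3 comparisons, first line minus second, with 95% confidence intervals from limma. Black circles are deposited values and red open squares rescaled values. Sxl lies to the right of 0 and msl-2, msl-3 and mof to the left in RasV12 against CL8. msl-3 lies far below 0 in L2 against CL8, and msl-2 in RasV12 against L2.

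The other genes of the MSL complex and its partners differed between RasV12 and CL8 in both directions. Of 12 genes listed, 9 were measured, and lncRNA:roX1, lncRNA:roX2 and Top2 are not analysed here because the annotation pairs them with no probe set. With the 3 members included, 7 of the 9 were lower in RasV12 than in CL8, 1 was higher and 1 did not pass (6 lower and 2 higher rescaled). Without those 3, 4 of 6 genes were lower and 1 was higher (3 lower and 2 higher rescaled), where 38.6% of all probe sets were lower and 11.3% higher (29.8% and 35.4% rescaled). The median log2 difference was -1.24 (-0.50 rescaled) over the 9 genes and -0.83 (-0.37 rescaled) over the 6. It was -0.08 (0.05 rescaled) over all probe sets and -0.72 (-0.08 rescaled) over the 7643 whose mean was above the highest control of all arrays. Both medians are comparators for the gene lists that follow in RasV12 against CL8. The shares of all probe sets called count dim probe sets too, while most list genes were above the controls in some line. When only the 7643 were tested on deposited values, larger shares were called lower and called higher. The deposited shares of all probe sets are therefore too low a base for list genes above the controls. mle, the RNA helicase that remodels the roX RNAs, had a mean of 6.27 ± 0.19 (SD, n = 3) for RasV12 and of 7.99 ± 0.19 (n = 4) for CL8, with L2 at 7.51. It fell by 1.72 in RasV12 against CL8 (-1.04 rescaled; limma adjusted p = 1.4e-05). msl-1, the scaffold on which the complex assembles, differed by -1.24 (-0.45 rescaled; limma adjusted p = 3.95e-05, and 0.0134 rescaled).

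Partners outside the core complex did not move together. Unr, an RNA-binding protein that acts with Sxl in blocking msl-2 translation, read 10.07, 9.93 and 9.60 in RasV12, 9.33, 8.72, 8.01 and 7.99 in CL8 and 9.02 in L2. It was higher in RasV12 than in CL8 by 1.36 ± 0.33 (2.15 rescaled; limma adjusted p = 0.00833). As with Sxl probe set 2, CL8 arrays 3 and 4 were its lowest arrays. JIL-1, a histone H3 kinase enriched on the male X chromosome, differed by -1.06 (limma adjusted p = 0.000303) on deposited values and did not pass rescaled, at -0.29 (limma adjusted p = 0.0901). Clamp, the zinc finger protein that brings the complex to its DNA sites, did not pass on deposited values, at -0.03 (limma adjusted p = 0.837), and was called higher rescaled, at 0.80 (limma adjusted p = 0.00293). Su(var)3-7, a heterochromatin protein, was dim in every line, at 4.20 in RasV12 and 4.79 in CL8, and differed by -0.59 (-0.50 rescaled; limma adjusted p = 0.00207).

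In L2 against CL8, msl-1, msl-3 and mof were the genes of this list that passed on deposited values. Of the 9 genes, 3 were thus lower in L2 than in CL8 and 0 higher (2 lower and 2 higher rescaled), with a median of -0.23 (0.07 rescaled) beside 0.27 (0.01 rescaled) over all probe sets and -0.38 (-0.03 rescaled) over those above the controls. msl-1 was lower in L2 by a log2 difference of -0.93 on deposited values (limma adjusted p = 0.0033) and did not pass rescaled, at -0.34 (limma adjusted p = 0.151). mle differed by -0.49 and did not pass (limma adjusted p = 0.0584, and 0.773 rescaled), but with array medians subtracted it passed at -1.16 (limma adjusted p = 0.0044). It passed without CL8 array 2, at -0.57, and without RasV12 array 1, at -0.49 (limma adjusted p = 0.0343 and 0.0493). RasV12 array 1 is not part of this comparison, so its removal kept the difference and changed only the error and the adjustment. In RasV12 against L2, 4 genes were lower and 0 higher in both scalings. These were msl-2, mof, mle at -1.23 (-1.11 rescaled) and JIL-1 at -1.22 (-1.09 rescaled; limma adjusted p = 0.00262), beside a median of -0.40 (-0.02 rescaled) over all probe sets and -0.37 (-0.08 rescaled) over those above the controls. With array medians subtracted, mle at -0.50 (limma adjusted p = 0.105) and mof at -0.36 (limma adjusted p = 0.227) lost the call, while JIL-1 was at -0.49 (limma adjusted p = 0.042).

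**Figure D3:**
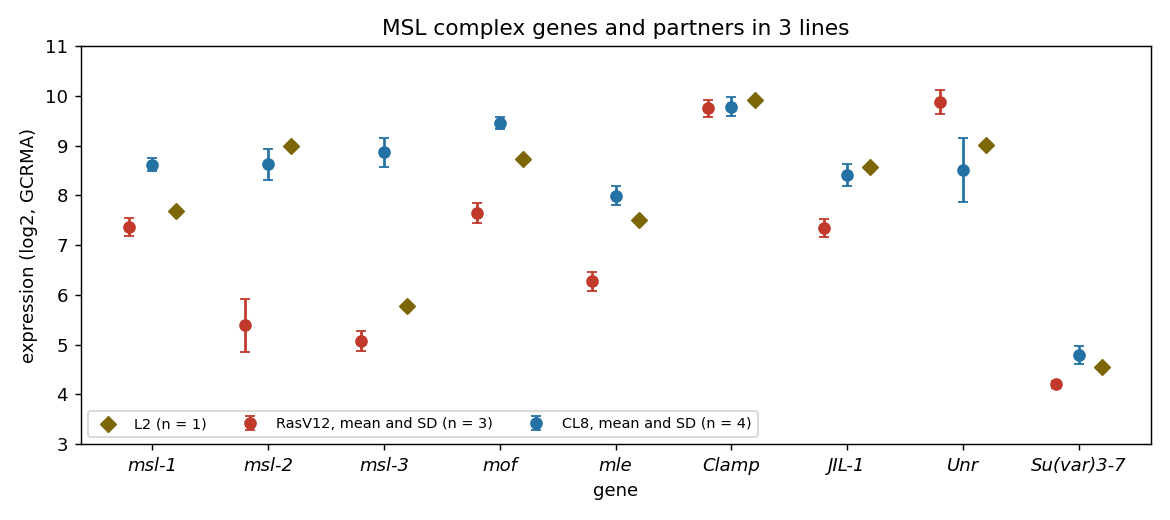
Log2 expression of 9 genes of the MSL complex and its partners, as mean and SD for RasV12 and CL8 and as the single value for L2. Levels of different genes are not comparable with each other. msl-2 is low in RasV12 alone, msl-3 is low in RasV12 and L2, and Unr is highest in RasV12.

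Genes of the NSL complex, in which Mof works outside dosage compensation, and of nuclear pore proteins bound to Mof were split. Of 8 listed genes 6 were measured, of which 3 were lower in RasV12 than in CL8, 1 was higher and 2 did not pass (1 lower and 3 higher rescaled). Nup153, one of these nuclear pore proteins, was higher by 1.63 (2.45 rescaled; limma adjusted p = 6.51e-05). dgt1, a subunit of the NSL complex, was lower at -1.24 (-0.41 rescaled; limma adjusted p = 1.37e-05, and 0.00385 rescaled). Rcd1, another subunit, was called lower only on deposited values, at -1.05 against -0.24 rescaled, and so was wds, a WD-repeat subunit, at -0.87 against -0.06. The list's median was -0.58 (0.22 rescaled).

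Upstream of Sxl, genes that count X chromosomes or set up its early expression differed in both directions. Of 11 listed genes 8 were measured, with 5 lower and 1 higher (4 and 2 rescaled) and a median of -0.78 (-0.14 rescaled), close to that of all probe sets above the controls. The 5 lower calls include dpn and gro, whose limits are given below, and her. her turned from -0.23 (limma adjusted p = 0.0419) to 0.60 rescaled (limma adjusted p = 0.000404). Stat92E, the transcription factor of the JAK/STAT pathway that helps to sustain the early Sxl promoter, differed by -1.91 (-1.19 rescaled; limma adjusted p = 2.06e-06), and by -2.28 on its other probe set. sc, a bHLH activator of that promoter, lay within the background controls in RasV12 and was at least 2.66-fold lower there than in CL8, where it read 4.75 ± 0.13 (SD, n = 4; limma adjusted p = 4.99e-06). dpn, a repressor of Sxl in early embryos, lay within the controls in all 3 lines. gro, a corepressor that acts with Dpn, differed by -0.91 on its brighter probe set (-0.10 rescaled, where it did not pass) and by 0.36 on its other one (limma adjusted p = 0.0302), so no direction holds for the gene.

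Splicing cofactors with which Sxl acts on its own RNA were called lower or did not pass on deposited values. Of 11 listed genes 8 were measured, 7 of them lower in RasV12 than in CL8 and 0 higher (3 and 1 rescaled), with a median of -1.0 (-0.31 rescaled). Of all probe sets, dim ones included, 38.6% were lower and 11.3% higher (29.8% and 35.4% rescaled). Among probe sets above the controls the deposited shares were larger, so the count of lower cofactors stands out less than these shares make it seem. vir, a subunit of the m6A methyltransferase complex needed for female Sxl splicing, read 4.81 ± 0.06 (SD, n = 3) for RasV12 and 7.20 ± 0.36 (n = 4) for CL8 and fell by 2.40 (-1.96 rescaled; limma adjusted p = 1.46e-05). U2af38, the small subunit of a general splicing factor, fell by 1.80 (-1.02 rescaled; limma adjusted p = 6.03e-07), and nito, an RNA-binding subunit of the methyltransferase complex, differed by -1.01 (-0.84 rescaled; limma adjusted p = 1.6e-05). pps, a chromatin protein that binds Sxl, was called only on deposited values, at -1.16 against -0.33 rescaled.

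Genes below Sxl in the sex determination cascade showed no common direction. All 8 listed genes were measured, with 1 higher in RasV12 than in CL8, 2 lower and 5 not passing (5 higher and 0 lower rescaled). The rescaled higher calls include Yp1 (0.11) and Yp2 (0.18), which lay within the background controls in all 3 lines. fru, a zinc finger transcription factor of male behaviour, was higher by 1.21 (2.03 rescaled; limma adjusted p = 0.00195) on the brightest of its 4 probe sets, while its others lay within the range of the controls. tra2, a splicing activator, was lower on deposited values at -1.18 (limma adjusted p = 0.000266) and did not pass rescaled, at -0.34 (limma adjusted p = 0.0797). tra, the direct splicing target of Sxl, had a mean of 7.75 ± 0.13 (SD, n = 3) for RasV12 and of 8.01 ± 0.22 (n = 4) for CL8, with L2 at 8.09. Its difference of -0.26 did not pass (limma adjusted p = 0.16), it was -0.34 without CL8 array 1 (limma adjusted p = 0.0467), and rescaling turned it to 0.52 (limma adjusted p = 0.0112). ix, a partner of the Dsx protein, likewise turned from -0.31 (limma adjusted p = 0.036) to 0.41 rescaled (limma adjusted p = 0.0116), and its call on deposited values was lost without any of CL8 arrays 1, 2 or 4 or RasV12 arrays 2 or 3, at -0.33 to -0.23. In L2, ix was low at 5.07, a difference of -2.56 from CL8 (-2.83 rescaled; limma adjusted p = 2e-05). The yolk protein genes Yp1 and Yp2, expressed in female fat body, lay within the background controls in all 3 lines. Yp3, the remaining yolk protein gene, read 3.44 in CL8, above the controls there, and lay within them in RasV12 at 3.34 and in L2 at 3.84, with no call in RasV12 against CL8 (-0.10; limma adjusted p = 0.402).

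Relatives of the members were read by probe sets of their own. ssx, the sister gene of Sxl, was bright in every line, with a mean of 11.90 ± 0.05 (SD, n = 3) for RasV12 and of 12.48 ± 0.16 (n = 4) for CL8 and with L2 at 12.11, and its difference of -0.58 in RasV12 against CL8 (limma adjusted p = 0.00156) turned to 0.19 rescaled (limma adjusted p = 0.0569). elav, a neuronal RNA-binding protein of the same family, read 7.36, 7.74 and 7.29 in RasV12, 4.11, 5.21, 6.74 and 6.46 in CL8 and 7.35 in L2. It was higher in RasV12 by 1.83 (2.28 rescaled; limma adjusted p = 0.0313), and the call was lost without CL8 array 2, at 1.69 (limma adjusted p = 0.0626), or without any 1 RasV12 array, at 1.70 to 1.92. The call was also lost with a trended and robust fit (limma adjusted p = 0.0686). The difference was 0.86 without CL8 arrays 1 and 2 (limma adjusted p = 0.00207), 2.80 without arrays 3 and 4 (limma adjusted p = 0.000114) and 1.33 without array 1. Within CL8, arrays 3 and 4 were its highest arrays and the lowest arrays of Sxl probe set 2. fne, another neuronal member, fell by 1.77 (-1.37 rescaled; limma adjusted p = 3.3e-05). Rbp9 differed by 0.30 and was called only rescaled, at 0.87 (limma adjusted p = 0.0776, and 0.00103 rescaled).

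In RasV12 against CL8 the relatives of msl-3 and mof changed less than these genes themselves, in differences that were not tested against each other. MRG15, the general chromodomain relative of msl-3, differed by -0.54 (limma adjusted p = 0.00386) and by 0.28 rescaled (limma adjusted p = 0.0521). Among the MYST acetyltransferases related to mof, enok fell by 1.48 (-0.65 rescaled; limma adjusted p = 1.26e-05, and 0.00262 rescaled). chm was called only on deposited values, at -1.21 against -0.49. Tip60 differed by -0.67 and did not pass (limma adjusted p = 0.0557), though it passed without RasV12 array 2, at -0.91, and without CL8 array 3, at -0.79 (limma adjusted p = 0.0124 and 0.0298). Of the 8 relatives, 5 were lower in RasV12 than in CL8 and 1 higher (2 and 2 rescaled), with a median of -0.62 (0.12 rescaled). In L2 against CL8 as deposited, enok (-1.28) and Tip60 (-0.86) differed more than mof (-0.72), and chm (-0.28) less. There MRG15 (-0.34) differed less than msl-3 (-3.09).

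The germline also expresses Sxl, and 9 of 12 listed germline markers were measured, vas and nos not among them. From 6 to 8 of them were above the highest control on each array. Their summed level was 12.10 to 12.26 on the log2 scale on the RasV12 arrays, 10.16 to 10.89 on the CL8 arrays and 9.58 on the L2 array. Most of the RasV12 sum was tud, a Tudor domain protein of the germ plasm, which rose by 3.43 in RasV12 against CL8 (4.22 rescaled; limma adjusted p = 2.83e-07). Without tud the sum was 9.11 to 9.43 in RasV12, 9.63 to 10.53 in CL8 and 8.50 in L2. Of the markers left, krimp had the highest mean in RasV12 (8.86) and in CL8 (9.45) and was low in L2 (4.45). Both sums thus lean on single bright probe sets and are not a level of the germline markers as a group. Of the 9 markers, 3 were lower in RasV12 than in CL8 and 1 higher (4 and 2 rescaled), with a median of -0.17 (-0.11 rescaled). The lower ones include zpg (-0.44) and the rescaled higher ones pgc (0.11), both within the background controls in all 3 lines. bam, a factor of germ cell differentiation, read 3.63 to 3.92 in RasV12 and 8.01, 7.06, 5.67 and 5.78 in CL8, and fell by 2.90 (-2.59 rescaled; limma adjusted p = 0.00208). aub, a piRNA-binding protein, fell by 1.39 (-0.71 rescaled; limma adjusted p = 0.000572). krimp, a Tudor domain protein of the same pathway, differed by -0.58 and did not pass (limma adjusted p = 0.0622), and passed without CL8 array 4, at -0.76 (limma adjusted p = 0.00649). In L2 krimp was low, at 4.45 against a CL8 mean of 9.45 (limma adjusted p = 2.99e-05). The part of germline transcripts in the Sxl values was not tested.

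The genes whose pattern over the 8 arrays was most like that of each member were found by the root mean square distance between log2 values, each centred on its own mean. For Sxl probe set 1, whose own root mean square spread was 1.84, they were CG1648 at 0.38, nuf, a recycling endosome adaptor, at 0.41 and unc-5, a netrin receptor, at 0.43. For Sxl probe set 2, with a spread of 1.93, they were the lipophorin receptor LpR2 at 0.47, the BMP receptor tkv at 0.54 and corto, a chromatin protein, at 0.59. The pair of Sxl probe sets thus had no near neighbour in common among their first 3. For msl-2 they were CG14621 at 0.30, the growth factor receptor Pvr at 0.33 and the elongation factor Eaf at 0.34, and for msl-3 they were blot, a transporter, at 0.26, CG5412 at 0.28 and Sdhaf3, an assembly factor of succinate dehydrogenase, at 0.28. The nearest to mof were the Toll ligand spz at 0.09, the decapping factor DCP1 at 0.10 and the tetraspanin Tsp3A at 0.11, where mof itself had a spread of 0.85. No member was among the first 3 neighbours of another.

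Since the MSL complex acts on the X chromosome, differences between lines were also summed by chromosome, with no test. In RasV12 against CL8 the 2079 X-linked probe sets had a median difference of -0.08, the same as the 10315 autosomal ones, and 0.05 for both rescaled. The shares called were alike too, with 11.5% of X-linked probe sets higher and 38.1% lower beside 11.3% and 39% of autosomal ones. The X minus autosomal median was 0.00, and between -0.05 and 0.02 for single pairs of a RasV12 and a CL8 array. Among probe sets whose mean was above the highest control of all arrays it was 0.04 (0.08 rescaled). In L2 against CL8 the X-linked median was 0.22 and the autosomal one 0.28, a gap of -0.06 (-0.05 rescaled), with 32.9% of X-linked and 39% of autosomal probe sets higher in L2. In RasV12 against L2 the gap was 0.07 (0.04 rescaled). Over probe sets above the controls these gaps were -0.07 (-0.12 rescaled) in L2 against CL8 and 0.14 (0.17 rescaled) in RasV12 against L2. The gaps with L2 rest on 1 array. The arms 2L, 2R, 3L and 3R had medians of -0.12 to -0.06 in RasV12 against CL8 and of 0.26 to 0.30 in L2 against CL8, and chromosome 4, with 72 probe sets, stood higher at 0.10 and 0.38.

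**Figure D4:**
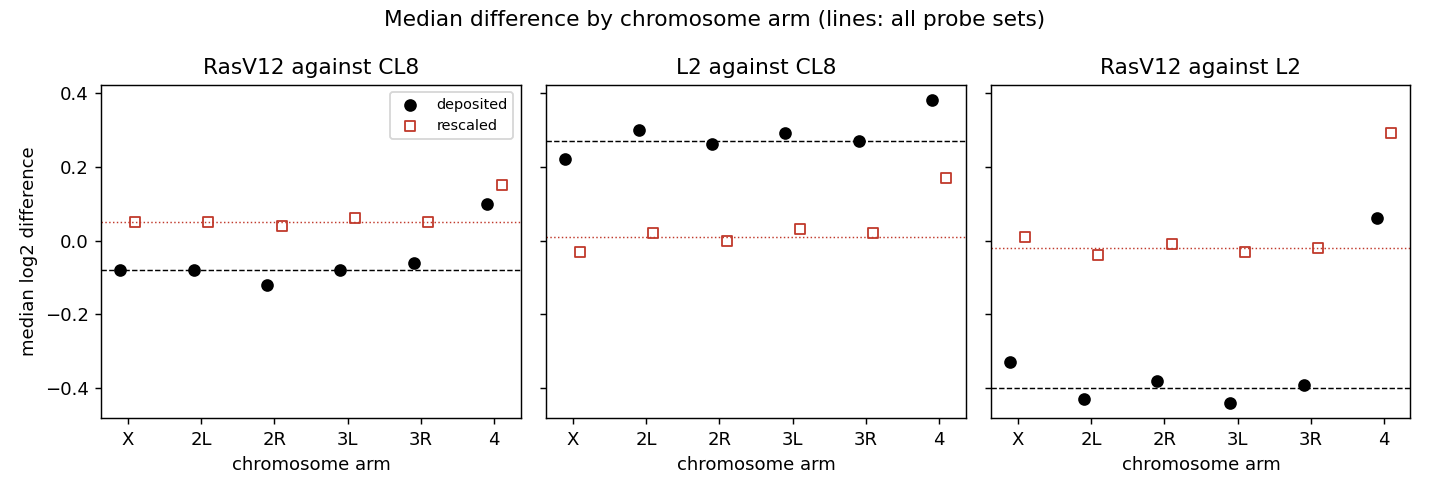
Median log2 difference of the probe sets on each chromosome arm in 3 comparisons, as deposited (black circles) and rescaled (red open squares). The dashed and dotted lines are the medians of all probe sets. The X chromosome lies at the line in RasV12 against CL8 and within 0.07 of it in both comparisons with L2, and chromosome 4 stands above the other arms.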

How the data were processed

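RNA of 3 cell lines was measured on 8 Affymetrix DrosGenome1 arrays. The authors computed the deposited log2 expression values with GCRMA, per the series' design text. GCRMA corrects for background by the GC content of probes, normalizes, and gives 1 value per probe set. That the unit is log2 follows from this method and from the range of the values. The sources used here do not say whether all arrays went through 1 run.

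Of 14010 probe sets, 44 controls were set aside. Of the 13966 tested, 12443 had 1 gene in the platform's annotation, 327 several and 1196 none, and 12394 of those with 1 gene matched RefSeq by gene identifier. All 8 arrays entered one limma fit (limma 3.58.1, R 4.3.3; lmFit, contrasts, eBayes), tested on simulated data. The number of arrays limits the precision, with a median standard error of 0.11 for RasV12 against CL8 and 0.17 for either comparison with L2. Groups came from sample titles. Alternatives were quantile normalization, array medians subtracted, a filter on dim probe sets, a trended and robust fit, arrays left out, and a replicate block.

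The members and the gene lists were chosen with earlier results of these data known. Of several probe sets for a list gene, the one with the highest mean was used. A line is above the controls if more than 50% of its arrays are above the highest one, and a fold against a line that is not is a lower bound. Named are all measured genes of the MSL and paralogue lists, the 4 genes of each other list that differed most in RasV12 against CL8, and the 3 nearest genes of each member's brightest probe set. The yolk protein genes, her, zpg and pgc, and the neighbours of the second Sxl probe set, were added after their values were seen.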

Additional observations from a re-analysis of the deposited data

Results flagged for a closer look

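In 3 of 39 probe sets named here, 1 CL8 array stood far from the other 3 (Dixon's test at the 95% level), where chance gives about 1 in 20 groups. Sxl probe set 1 read 5.31 on CL8 array 2 and 6.93 to 7.12 on the others. msl-3 read 9.30 on the same array and 8.69 to 8.73 on the others. Rbp9, a relative of Sxl, read 6.22 on CL8 array 1 and 6.52 to 6.55 on the others. Without CL8 array 2, Sxl probe set 1 differed by 3.14 and msl-3 by -3.64 in RasV12 against CL8, beside 3.57 and -3.79 with it.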

How the results depend on the processing

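Of 205 re-tests of the members, 198 kept the direction and the side of the threshold, or were called in neither fit, 3 lost a call and 4 gained one, and the causes were not tested. Some of these re-tests could not move a difference, so the count overstates how much was tried. A fit of the RasV12 and CL8 arrays alone repeats the main fit, since 1 L2 array adds no spread. Leaving out arrays of a line outside a comparison keeps its difference and changes only the error and the adjustment. Lost were mof in L2 against CL8 rescaled (-0.05), and with array medians subtracted Sxl probe set 2 in L2 against CL8 (2.34) and mof in RasV12 against L2 (-0.36). All 4 gains were msl-3 in RasV12 against L2, at -0.69 without CL8 arrays 1 and 2 or without 3 and 4, and within -0.81 to -0.62 when single arrays were left out. Named list genes changed sign with a call in 6 of 665 re-tests, in RasV12 against CL8 rescaled Clamp (0.80), ix (0.41), tra (0.52), ssx (0.19) and MRG15 (0.28), and JIL-1 in L2 against CL8 with medians subtracted (-0.52). Outside these re-tests, her also changed sign in RasV12 against CL8, from -0.23 to 0.60 rescaled. Counts of calls moved most with scaling. Rescaled, with medians subtracted and with the filter, the higher calls were 4941 and 4861 in RasV12 against CL8 (1580 as deposited), 2818, 1272 and 1304 in L2 against CL8 (5345), and 3077 and 6870 in RasV12 against L2 (1337). Lower calls were 8609 with medians subtracted in L2 against CL8 (3291), and 3633, 1786 and 2929 in RasV12 against L2 (6156). The filter counts of 1304 and 2929 are out of the 7643 probe sets kept, and the other counts out of 13966. Rescaled means were 10.59 and 9.15 for Sxl probe sets 1 and 2 in RasV12, 8.24 for msl-2 in CL8, 8.47 and 5.41 for msl-3 in CL8 and L2, and 8.07, 9.07 and 9.01 for mof in RasV12, CL8 and L2. The X minus autosomal median was 0.04 with the filter in RasV12 against CL8, and 0.04 rescaled and 0.14 with the filter in RasV12 against L2. With the replicate block, Sxl probe set 1 differed by 3.68 and msl-2 by -3.33, the calls were 1316 higher and 5018 lower, and no member changed its call. Same-numbered arrays deviated apart (r = -0.2449, -0.0980 and -0.0880), so the numbers do not pair them. Signal over background was lowest for Sxl probe set 2 on CL8 array 4, which read 3.88, 0.58 above the highest control.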
